A study of Mus musculus with 2 samples.

Results

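Malat1, Neat1, Miat, Rmst, Snhg11, Sox2ot, Pantr1 and Gas5 are 8 long noncoding RNA genes of the nucleus or of neural tissue, taken from the 43346 Ensembl gene rows of each table by name. Of the 8 genes, 6 were matched by Ensembl gene ID, and Rmst and Sox2ot through a transcript ID, because their gene IDs differ between annotation versions. The Rmst row (ENSMUSG00000097348.4) shared 1 transcript ID with Rmst, and each of its 13 transcripts had the length of an annotated Rmst transcript. The only row matched to Sox2ot was a 67-nt entry with an effective length of 0, which cannot be assigned reads. Levels are therefore given for 7 of the 8 genes.

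The data are total RNA-seq of hindbrain, the embryonic source of cerebellum, pons and medulla, from healthy mouse embryos of strain B6NCrl at embryonic day 13.5. The samples form 1 group of 2 libraries, biological replicates 1 and 2, with no treatment and no second genotype. Both were prepared from 10 ng of RNA above 200 nt, drawn from pooled males and females, with ERCC spike-ins added. They share a donor label but not a biosample label, and how much of their spread is technical was not tested.

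Many long noncoding RNAs stay in the nucleus, where they bind proteins or act near their own gene. Malat1 is a very abundant RNA of nuclear speckles, the compartments rich in splicing factors, and Neat1 builds paraspeckles, for which its long form is required. Miat, also called Gomafu, forms its own nuclear domain in neurons and binds splicing factors. Rmst binds the progenitor factor SOX2, Sox2ot carries the Sox2 gene within an intron, and Pantr1 lies beside the neural POU factor gene Pou3f3. Gas5 and Snhg11 are snoRNA host genes, whose introns hold small RNAs that guide RNA modification; the annotation used here lists Snhg11 as protein coding.

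The first sequence is Malat1-203, the 485-nt transcript to which most Malat1 reads were assigned. It lies at chr19:5801916-5802671 (mm10, minus strand), within the first 757 bases of the 6983-nt Malat1-201. The last 249 nt of its 434-nt first exon (chr19:5802238-5802486) are printed in lower case, joined to its 51-nt second exon (chr19:5801916-5801966) in capitals.
Malat1-203: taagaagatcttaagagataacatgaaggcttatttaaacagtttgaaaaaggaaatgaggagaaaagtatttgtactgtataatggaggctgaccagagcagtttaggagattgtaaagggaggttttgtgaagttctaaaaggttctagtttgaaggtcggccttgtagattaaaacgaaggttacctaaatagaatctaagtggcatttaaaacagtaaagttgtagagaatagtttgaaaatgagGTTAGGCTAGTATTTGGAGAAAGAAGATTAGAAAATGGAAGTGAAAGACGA

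The A-rich ends of Malat1-201 and Neat1-201 are shown because both RNAs are known to be cut by RNase P after such a tract in place of ordinary polyadenylation. The pieces are 120 nt each, at chr19:5795982-5796101 and chr19:5824708-5824827 (mm10, minus strand), and capitals mark the last 11 bases of Neat1-201 and their match in Malat1-201.
Malat1-201: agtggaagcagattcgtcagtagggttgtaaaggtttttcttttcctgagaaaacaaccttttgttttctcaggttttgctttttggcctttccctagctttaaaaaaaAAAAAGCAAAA
Neat1-201: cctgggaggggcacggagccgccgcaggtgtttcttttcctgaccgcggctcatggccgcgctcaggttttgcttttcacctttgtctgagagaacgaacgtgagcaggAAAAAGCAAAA
The run AAAAAGCAAAA was searched on the transcript strand only and matched once in each. In Malat1-201 it spanned bases 6681 to 6691, with 292 annotated bases after it. In Neat1-201 it was the last 11 bases, 20761 to 20771. Of 68537 annotated transcripts of 1000 nt or longer, 551 (0.804%) contained it.

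Pantr1 transcripts begin at 1 of several first exons, and its main transcripts differ in an upstream or a downstream first exon and in a cassette exon, one that is included or skipped. The upstream first exon (79 nt, chr1:42694747-42694825) and the cassette exon (47 nt, chr1:42663556-42663602, in capitals) are shown, both on the minus strand of mm10.
Upstream first exon: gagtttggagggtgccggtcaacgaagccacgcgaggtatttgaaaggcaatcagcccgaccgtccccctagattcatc
Cassette exon: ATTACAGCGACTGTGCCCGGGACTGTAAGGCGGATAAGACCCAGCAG

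The next sequences mark alternative pieces of the snoRNA host genes and of Rmst. The Gas5-210 first exon (chr1:161035067-161035194, plus strand) is shown with the part it shares with the 32-nt first exon of Gas5-224 in capitals. The 41-nt Gas5 alternative exon (chr1:161037124-161037164, plus strand) and the 80-nt Snhg11 alternative exon (chr2:158376745-158376824, plus strand) are wholly in capitals as the parts that differ between transcripts. Rmst-206 (chr10:92071043-92071710, minus strand, 309 nt) is the Rmst transcript with the highest TPM; its 256-nt second exon (chr10:92071043-92071298) is shown without capitals.
Gas5-210 first exon: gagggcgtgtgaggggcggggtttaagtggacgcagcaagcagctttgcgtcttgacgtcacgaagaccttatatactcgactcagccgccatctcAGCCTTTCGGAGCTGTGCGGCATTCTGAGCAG
Gas5 alternative exon: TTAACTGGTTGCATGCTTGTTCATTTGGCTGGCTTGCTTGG
Snhg11 alternative exon: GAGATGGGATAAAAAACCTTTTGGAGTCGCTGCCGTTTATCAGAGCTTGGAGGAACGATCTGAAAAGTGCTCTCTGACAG
Rmst-206 exon 2: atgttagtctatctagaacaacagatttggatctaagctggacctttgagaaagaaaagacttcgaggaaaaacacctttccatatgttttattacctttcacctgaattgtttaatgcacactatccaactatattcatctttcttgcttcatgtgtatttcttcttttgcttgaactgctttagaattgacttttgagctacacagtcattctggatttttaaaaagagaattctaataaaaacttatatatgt

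Replicate 1 held 33080194 estimated counts and replicate 2 held 38756411, of which ERCC spike-ins took 2.31% and 2.54%. TPM is a level divided by transcript length and scaled to the library. Genes that reached 1 TPM in each library are called detected here; there were 15342, with a median of 16.1 TPM. Hindbrain factors were detected in 9 of 10 cases and forebrain factors in 1 of 8, Lhx2 at 18.6 ± 0.856 TPM (SD, n = 2). The libraries differed in genes of several cell types. The exact test described below called 5.49% of all genes lower and 7.07% higher in replicate 2. Among genes with 1000 or more counts in the pair it called 16.5% in either direction. The choroid plexus list, all 6 of whose genes were higher in replicate 2 by that test, summed to 633 and 1190 TPM in replicates 1 and 2. The mesenchyme list, with 4 of 6 genes lower, summed to 757 and 589. The erythroid list, with 6 of 7 higher and 1 lower, summed to 12551 and 13666. The neuron list, with 4 of 10 lower and 1 higher, summed to 4505 and 4329, and the progenitor list, with 6 of 10 higher and 3 lower, to 2813 and 3089. Most of the progenitor sum and of its rise lay in 1 gene, Fabp7, at 1787 and 2042 TPM. The microglia list, with 3 of 6 higher, summed to 98.5 and 117, and the endothelial list, with 1 of 6 higher, to 159 and 167. With 1 call, the endothelial list does not by itself show a difference between the libraries. All genes of these 7 lists were detected.

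All 7 measurable RNAs were detected, and their levels spanned more than 3 orders of magnitude with the same order in both libraries. Malat1 was the highest at 10630 TPM in replicate 1 and 9517 in replicate 2, rank 4 of all Ensembl genes by mean TPM. Snhg11 followed at 461 and 409 TPM (435 ± 36.6, rank 293) and Gas5 at 422 and 404 TPM (413 ± 13.0, rank 318; SD, n = 2). The ranges of Snhg11 and Gas5 overlapped, so their order was within the spread of the libraries. Pantr1 had 225 and 202 TPM (214 ± 16.1, rank 708), Rmst 125 and 118 TPM (121 ± 5.11, rank 1374) and Miat 55.5 and 51.0 TPM (53.2 ± 3.16, rank 3339; SD, n = 2). Neat1 was far below at 2.39 and 2.67 TPM (2.53 ± 0.198, SD, n = 2), rank 13389. No other neighbours in this order overlapped. The median of the 7 genes was 214 TPM, against 8.70 TPM over the 19687 genes tested below.

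**Figure D1:**
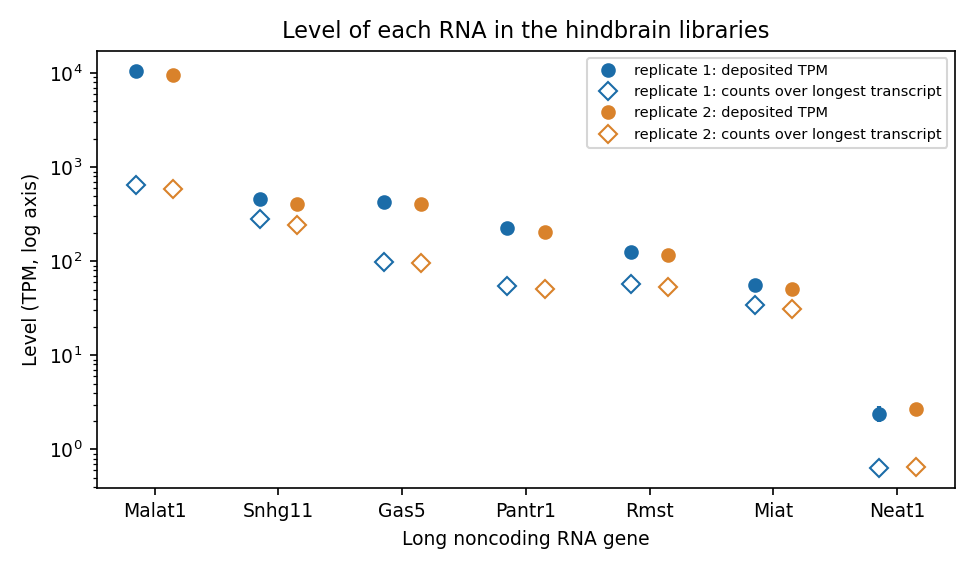
Level of each RNA in TPM on a log axis, with 1 point per library (blue, replicate 1; orange, replicate 2). Filled circles are the deposited TPM with its deposited interval as a vertical line, mostly hidden by the circle, and open diamonds divide the same counts by the length of the gene's longest transcript; Malat1 lies near 10073 TPM by the first measure and 616 by the second, while Neat1 is lowest by both.

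Because TPM divides by length, the levels were also computed from each gene's counts over the length of its longest transcript. On that scale Malat1 had 650 and 582 TPM (616 ± 47.9), Snhg11 had 281 and 245 (263 ± 25.1) and Neat1 had 0.636 and 0.646 (0.641 ± 0.00736; SD, n = 2). Malat1 remained the highest and Neat1 the lowest, and Neat1 fell below the detection level. Rmst, at 57.0 and 53.0, passed Pantr1, at 55.1 and 50.5, but their ranges overlapped. The ratio of Malat1 to Neat1, whose genes lie 22036 bp apart on chromosome 19, was 4448 and 3564 in TPM, 1022 and 901 per longest transcript, and 340 and 300 in estimated counts. The size of that ratio thus depended on the length used, and Malat1 exceeded Neat1 on each of the 3 scales.

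Malat1 (ENSMUSG00000092341.2, chr19:5795690-5802672, minus strand) owed its TPM to the short transcript at its 5′ end shown above. Malat1-203 held 99.4% of the gene's TPM in both libraries, at 10571 and 9464 TPM. It was assigned 84279 and 89123 of the 92447 and 97814 Malat1 counts, or 91.2% and 91.1%. The full-length Malat1-201 was assigned 8147 and 8680 counts, 57.3 and 51.7 TPM. The 5′ piece thus held about 10.3 times the counts of the whole transcript in both libraries. Among 10272 detected genes with several transcripts, the transcript with the highest TPM was under 10% of the longest one in 167 (1.63%). In only 2 of those 167 did it hold 99% or more of the TPM.

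Gm37376, a 453-nt locus annotated on the opposite strand, lies inside the same stretch of Malat1 and was chosen for description after its values were seen. It was assigned 27094 and 27193 counts, 3706 and 3149 TPM (3427 ± 394, SD, n = 2), rank 20 of all Ensembl genes. It covers the whole 271-nt gap between the exons of Malat1-203 and 182 nt of the exons themselves. All 453 of its bases lie within Malat1-201. The strand setting of the counting is not given in the sources used here, so the reads of Malat1 and of Gm37376 cannot be told apart. With both pooled, the locus held 119541 and 125007 counts, of which Malat1-203 and Gm37376 together had 93.2% and 93.0%. Over the longest transcript length the pooled locus had 841 and 744 TPM. Malat1 alone was already the highest of the 7 genes on that scale, so adding counts could not change its rank. Malat1-201 by itself, at 57.3 and 51.7 TPM, was below the gene TPM of Snhg11, Gas5, Pantr1 and Rmst. It was above that of Neat1. It was also above that of Miat in each library, at 55.5 and 51.0 TPM, but their ranges overlapped.

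**Figure D2:**
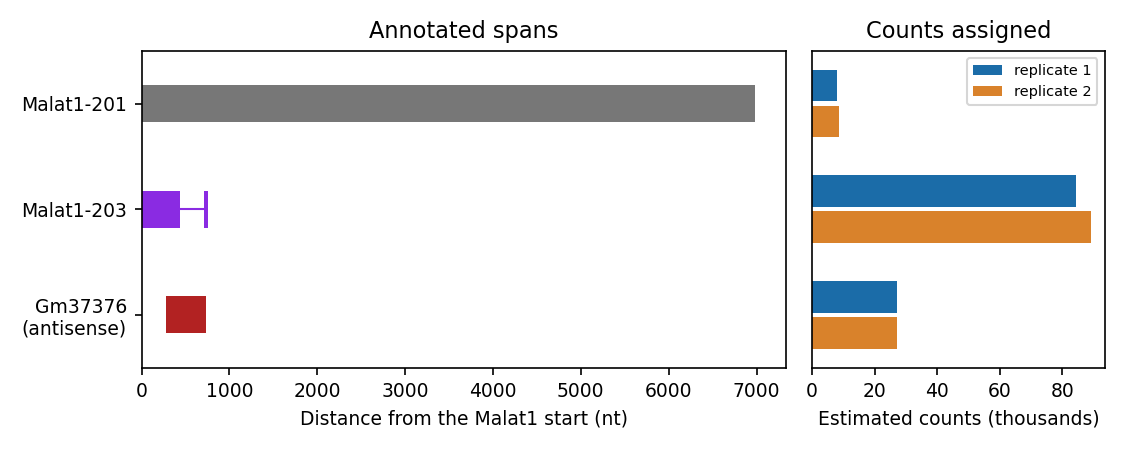
Left, spans of Malat1-201, Malat1-203 (boxes are exons, the line its gap) and the antisense Gm37376, in nt from the Malat1 start. Right, estimated counts (axis in units of 1000) assigned to each in replicate 1 (blue) and replicate 2 (orange); the 485-nt Malat1-203 had 84279 and 89123 counts, against 8147 and 8680 for the 6983-nt transcript.

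Transcripts for speckle proteins were measured beside Malat1. All 12 nuclear speckle genes were detected, with a median of 232 TPM, and 2 were lower and 2 higher in replicate 2 by the exact test. That test called 5.49% of all genes lower and 7.07% higher. Among genes with 1000 or more counts in the pair it called 16.5% in either direction. The splicing factor genes Srsf3 at 582 ± 8.40 and Srsf2 at 488 ± 12.1 TPM and the speckle scaffold gene Srrm2 at 406 ± 0.304 TPM were the highest (SD, n = 2). The lowest was Thoc1, of the mRNA export complex THO, at 33.9 ± 0.283 TPM (SD, n = 2).

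Neat1 (ENSMUSG00000092274.2, chr19:5824708-5845478, minus strand) had few reads, 272 and 326 counts. Its 3004-nt short form, Neat1-202, had 1.89 and 2.36 TPM on 113 and 167 counts. The 20771-nt long form, Neat1-201, had 0.36 and 0.31 TPM on 155 and 159 counts. By TPM the short form exceeded the long form 5.25-fold and 7.61-fold. By counts the ratio of short to long was 0.730 and 1.05, so that the form with more reads differed between the libraries. The interval of the short form was 1.43 to 2.21 TPM in replicate 1 and 1.92 to 2.69 in replicate 2, and that of the long form 0.296 to 0.418 and 0.258 to 0.363. For neither form did the intervals of the libraries separate. The short form overlaps the start of the long form, so the division of their shared reads is an estimate.

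The protein genes of paraspeckles were detected in 10 of 10 cases, at a median of 142 TPM. The RNA-binding protein gene Hnrnpk had 1376 ± 9.83 TPM and Nono, a core paraspeckle protein gene, 318 ± 3.15 (SD, n = 2). Pspc1, a partner of Nono, was lowest at 38.1 ± 3.06 TPM (SD, n = 2), about an order of magnitude above Neat1. In replicate 2, 1 of the 10 was higher by the exact test (Hnrnpk, adjusted p = 0.000806, exact binomial test) and 0 were lower. Over all genes the test called 7.07% higher and 5.49% lower. The difference in Hnrnpk was small, at 1369 and 1383 TPM in replicates 1 and 2.

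Miat (ENSMUSG00000097767.4, chr5:112213228-112229395, minus strand) was the member whose reads fell most on a near full-length RNA. Miat-201, 8758 nt long, held 59.9% and 57.5% of TPM and 91.6% and 90.0% of counts. The 284-nt Miat-204 held 28.6% and 26.0% of TPM on 60.7 and 59.9 counts of the 6491 and 6878 of the gene. A small RNA locus inside a Miat exon, Gm27998, was assigned 0 counts in replicate 1 and 33.5 in replicate 2. All 361 of its bases are shared with Miat on the same strand. The division of reads between them is therefore an estimate, and these values do not show a difference. Of the splicing regulators known to bind Miat, Sf1 had 85.0 ± 2.12 TPM, Celf3 47.1 ± 1.73 and Qk 37.3 ± 2.68 (SD, n = 2). Sf1 and Qk were higher in replicate 2 (adjusted p = 0.0323 and 6.17e-08, exact binomial test), while Celf3 had an adjusted p of 0.412 in the same test. On the right of Miat, the lens crystallin gene Cryba4 stood at 1.57 and 2.69 TPM.

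Rmst (chr10:92071037-92165170, minus strand) had reads at both ends of its 94134-bp span. Rmst-206, the 309-nt transcript shown above, ends near the 3′ end of the locus and held 37.0% and 35.9% of the gene's TPM on 200 and 216 counts. Rmst-207, a 2698-nt transcript at the 5′ end, held 28.0% and 27.3% of TPM but 57.1% and 56.5% of counts. The transcripts have 0 bases in common, so that the highest by TPM and by counts were different annotated transcripts of this locus. Whether their reads came from separate RNAs was not tested. The 10-exon Rmst-210, 2891 nt, held 9.19% and 9.04% of TPM and 20.1% of counts in both libraries. These names rest on equal transcript lengths, apart from Rmst-201, which was matched by ID.

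Other annotated loci overlap Rmst. Gm26700, on the opposite strand, shares 1955 exon bases with Rmst transcripts and was assigned 623 and 600 counts; it was chosen after its values were seen, and its reads cannot be told apart from those of Rmst without strand. Of 10 small RNA loci on the same strand, 7 share exon bases with Rmst and the 10 together had 80.1 and 92.9 counts, mostly from Gm27544 (49 and 73). The miRNA genes Mir135a-2 and Mir1251 had effective lengths of 1 and 0 nt and 0 counts, so their level was not measurable here. To the left, Tmpo, a gene of the nuclear lamina, lies 889722 bp away and had 78.9 and 84.3 TPM.

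For Sox2ot (chr3:34104270-34682619, plus strand), the readings found were of other annotated rows inside its 578350-bp span. Other deposited rows may hold Sox2ot, since 884 gene rows had no match in the annotation used here. RF01953, a small locus wholly within a Sox2ot exon, had 43 and 55 counts. Gm27403, another, had 10 and 14, and Gm27611 had 0 and 1. The 3 loci summed to 53 and 70 counts, which is a reading of short pieces and not a level of Sox2ot. Sox2, the progenitor factor gene inside the locus, had 12.0 and 13.8 TPM on 582 and 791 counts, and was higher in replicate 2 (adjusted p = 0.0415, exact binomial test). Dnajc19, a mitochondrial import gene to the left of Sox2ot, had 71.8 and 70.0 TPM.

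Genes linked to SOX2 and Rmst were present at modest levels, with 5 of 6 detected. The Notch target Hes5 had 150 and 125 TPM and was lower in replicate 2 (adjusted p = 2.77e-10, exact binomial test), the Notch ligand gene Dll1 had 24.2 and 21.9 TPM, and the proneural gene Neurog2 had 14.3 and 12.1 TPM. Over the list 1 gene was lower and 1 higher, so the partner genes did not share a direction. The test called 5.49% of all genes lower and 7.07% higher. The interneuron factor gene Dlx1 was not detected at 1.09 and 0.78 TPM.

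Pantr1 (ENSMUSG00000060424.10, chr1:42590782-42694842, minus strand) was assigned 2259 and 2447 counts, and the shares of its single transcripts differed more between the libraries than the shares of its exons. Pantr1-212 had 46.0% of TPM in replicate 1 and 27.4% in replicate 2, Pantr1-209 had 23.8% and 42.0%, and Pantr1-207 had 26.4% and 12.8%. Pantr1-206 had 0% in replicate 1 and 12.7% in replicate 2, with an interval reaching 20.8 TPM in replicate 1. Summed over all transcripts with the upstream first exon the share was 48.4% and 43.8% (46.1% ± 3.27), and with the downstream first exon 50.5% and 55.0% (52.8% ± 3.13; SD, n = 2). Transcripts with the cassette exon summed to 26.7% and 25.7% (26.2% ± 0.693, SD, n = 2). For 0 of the 12 transcripts did the deposited intervals of the libraries separate. The exon shares differed by less than 5 percentage points between the libraries, against 12 or more for each of the 4 transcripts.

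**Figure D3:**
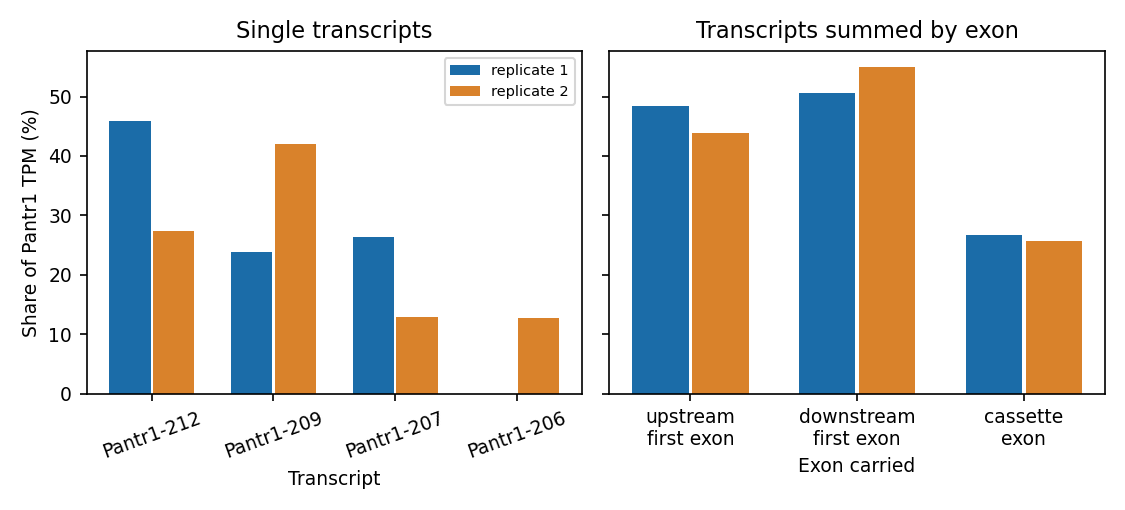
Share of Pantr1 TPM in percent for replicate 1 (blue) and replicate 2 (orange). Left, 4 single transcripts, of which Pantr1-212 had 46.0% and 27.4%; right, transcripts summed by the exon they carry, where the cassette exon stood at 26.7% and 25.7%.

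Pou3f3, the POU homeodomain gene that lies 926 bp from the upstream edge of Pantr1, had 14.8 and 14.1 TPM. Pantr1 exceeded it 15.2-fold and 14.3-fold in TPM, but their counts were nearly equal, with ratios of 1.01 and 0.972. Pou3f2, a related neural factor gene on another chromosome, had 34.7 and 28.0 TPM and was lower in replicate 2 (adjusted p = 4.53e-16, exact binomial test). Pantr2, a noncoding RNA of the same region, had 9.33 and 7.88 TPM (adjusted p = 0.216, exact binomial test). AC122898.1, 83 bp from Pantr1 on the opposite strand, had 2.11 and 2.16 TPM.

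Snhg11 (ENSMUSG00000044349.11, chr2:158375638-158386145, plus strand) divided its TPM between a long and a short transcript. Snhg11-201, 5864 nt with a long last exon, had 231 and 201 TPM, or 49.6% ± 0.742 of the gene (SD, n = 2), and 82.3% and 81.8% of counts. Snhg11-205, 1329 nt, had 174 and 162 TPM, or 38.7% ± 1.28 (SD, n = 2). It is annotated as a target of nonsense-mediated decay, the pathway that degrades RNAs with an early stop codon, and it carries the 80-nt exon shown above, in which the annotation places a stop codon. The transcripts annotated with that type summed to 40.7% ± 1.55 of TPM, and those with a retained intron to 9.73% ± 0.792 (SD, n = 2). Snhg17, the neighbour to the left and also a snoRNA host gene, had 24.0 and 21.8 TPM and was lower in replicate 2 (adjusted p = 0.0322, exact binomial test).

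Gas5 (ENSMUSG00000053332.9, chr1:161034422-161038539, plus strand) had 25 annotated transcripts, of which 21 were assigned counts in both libraries and 20 had a mean of at least 1 TPM. Gas5-210 held 37.3% and 40.1% of TPM and Gas5-224 held 22.4% and 22.8%. These transcripts start at the first exons shown above, of which the shorter lies wholly within the longer. The 41-nt alternative exon was carried by 22.7% and 23.6% of TPM. The 20 transcripts annotated with a retained intron summed to 39.4% and 36.2%. Gas5-222, of that type, had 11.4 and 18.9 TPM, higher in replicate 2 with separate intervals, while the gene as a whole had an adjusted p of 0.702 in the exact binomial test. All 9 small RNA loci inside Gas5, of the snoRNA type, had an effective length of 0 nt and could not be assigned reads. Their bases all lie within exons of annotated Gas5 transcripts, so host and snoRNA reads were not separated there.

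Other snoRNA host genes and the decay factors were set beside Snhg11 and Gas5. Of 14 listed host genes 11 had a matched row, with Snhg1, Snhg7 and Snhg8 left without one. All 11 were detected, with a median of 42.0 TPM. The highest of the 11 were Snhg14 at 107 ± 10.5 TPM, Snhg5 at 87.2 ± 3.78 and Snhg20 at 79.7 ± 0.474 (SD, n = 2). These were below both Gas5 and Snhg11 in each library. Snhg18 was the lowest at 3.30 ± 0.0919 TPM (SD, n = 2). In replicate 2, 2 of the 11 were lower, Snhg14 and Snhg17 (adjusted p = 0.000372 and 0.0322, exact binomial test), and 0 were higher. All 10 decay factor genes were detected at a median of 22.6 TPM, from Smg5 at 55.1 ± 1.59 and Upf3a at 44.8 ± 3.60 down to Upf2 at 7.82 ± 0.594 TPM (SD, n = 2); 2 were lower in replicate 2 and 0 higher. Among 17 other matched long noncoding RNAs 13 were detected, the highest being the imprinted Meg3, at 1459 and 1317 TPM, followed by Rn7sk, which restrains transcription elongation, at 361 and 401 and Tug1 at 151 and 147. The lowest detected was Six3os1, beside the forebrain gene Six3, at 1.30 ± 0.0212 TPM (SD, n = 2). Over that list 3 were lower and 2 higher in replicate 2. Beside the calls in these lists, the exact test called 5.49% of all genes lower and 7.07% higher in replicate 2. Among genes with 1000 or more counts in the pair it called 16.5% in either direction.

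For some of the 7 genes, the leading transcript depended on whether TPM or counts were used. In replicate 1 the transcript with the highest TPM was not the one with the most counts in Neat1 and Rmst, 2 of 7, against 13.1% of the 10272 detected genes with several transcripts. In replicate 2 this held for Rmst alone, 1 of 7, against 12.8%. Pantr1-212 led by both measures in replicate 1 and Pantr1-209 by both in replicate 2. By TPM the leading transcript held 50% or more of the gene in 3 of 7 (Malat1, Neat1 and Miat). The share of all 10272 genes was 74.9%, with a median leading share of 67.7%. These counts are descriptions of 7 chosen genes.

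**Figure D4:**
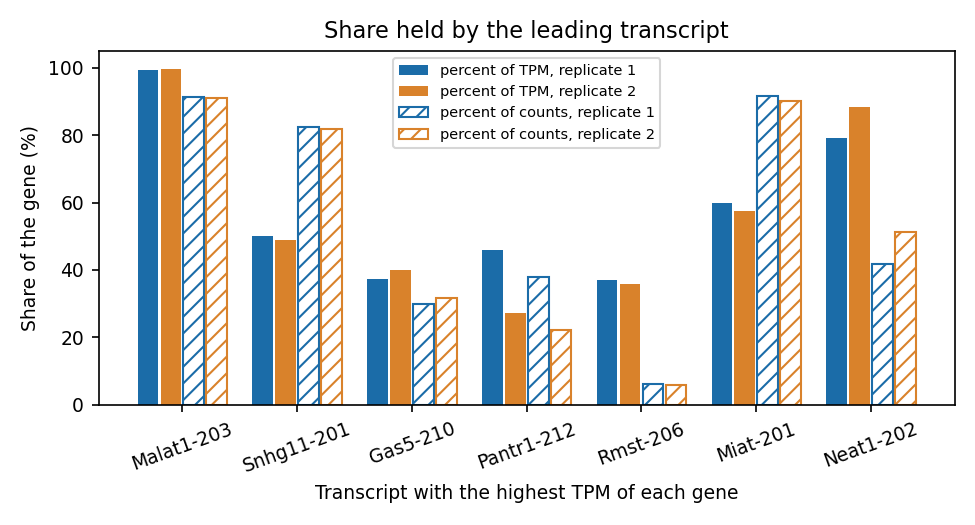
Share of each gene, in percent, held by its transcript with the highest TPM, as percent of TPM (filled) and of estimated counts (hatched) in replicates 1 (blue) and 2 (orange). Rmst-206 held 37.0% and 35.9% of TPM but few of the counts, while Miat-201 held 91.6% and 90.0% of counts.

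For the comparison of the libraries, a gene's counts were set against the library sizes in an exact binomial test, two-sided, with Benjamini-Hochberg adjustment over 19687 genes. It compares these 2 libraries against counting error and not conditions. Of the 7 RNAs, 3 were called at an adjusted p of 0.05, all lower in replicate 2, where the test called 5.49% of all genes lower, 7.07% higher and 12.6% in either direction. Among the 9733 genes with 1000 or more counts in the pair, to which 6 of the 7 belong, 16.5% were called in either direction. Malat1 was 1.12-fold higher in replicate 1 by TPM (log2 ratio -0.16, adjusted p = 1.18e-93, exact binomial test), Snhg11 1.13-fold (log2 ratio -0.17, adjusted p = 4.10e-53) and Miat 1.09-fold (log2 ratio -0.12, adjusted p = 2.21e-06). All 3 differences were under 1.2-fold.

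The other 4 RNAs did not pass the test. Pantr1 had a log2 ratio of -0.15 (adjusted p = 0.0867), Rmst -0.09 (adjusted p = 0.0942), Gas5 -0.06 (adjusted p = 0.702) and Neat1 0.11 (adjusted p = 0.907, all by the exact binomial test). Those are TPM ratios, while the test used counts, with CPM log2 ratios of -0.10, -0.08, -0.02 and 0.04 in that order. The median of the 7 TPM ratios was -0.12, against -0.01 over all genes tested. With ERCC spike-in counts as library size the median ratio of all genes moved by -0.14, Neat1 turned from 0.04 to -0.10 on the CPM scale, and Rmst, Pantr1 and Gas5 were called as well. Relative to the median of all genes, the CPM ratios are by construction the same under any library scaling, at -0.14 for Malat1, -0.18 for Snhg11, -0.14 for Miat and 0.04 for Neat1. The part that the cell type lists given above have in these differences was not tested. In such bulk tissue, fewer cells of a type and less RNA per cell cannot be told apart.

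The TPM intervals of the libraries were disjoint for Malat1, Snhg11 and Pantr1, 3 of 7, all lower in replicate 2, where 4.82% of 15878 genes were lower, 4.45% higher and 9.27% disjoint in either direction. For Malat1 the intervals were 10270 to 10411 and 9234 to 9356 TPM, and for Snhg11 439 to 459 and 392 to 409. The TPM of both genes lay above its own interval in each library. For Pantr1 the intervals, 212 to 234 and 192 to 212 TPM, were separated by less than 1 TPM, and they overlapped with FPKM intervals and after replicate 2 was rescaled by the median ratio, which left 2 of 7. Of the 50 transcripts of the 7 genes whose mean was at least 1 TPM, 6 were disjoint, against 4.96% of 35817 transcripts; they were 2 of Malat1, 2 of Snhg11, 1 of Miat and 1 of Gas5.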

How the data were processed

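Total RNA-seq of 2 hindbrain libraries was analysed, with gene and transcript tables deposited by the authors for each. Expected counts, per the file headers, are the authors' estimates of reads per gene and transcript and need not be whole. TPM and FPKM, as deposited by the authors, are per length and per library, with a posterior mean. The bounds of their credibility intervals are signal values deposited by the authors, at a level that is not stated. The percent of a gene's TPM on each transcript was also deposited. Assembly mm10 and GENCODE M4 are named in the submitters' processing notes; the sources used here do not name the aligner, counter or strand setting. Effective length was length minus 99 nt.

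Names, positions and sequences came from GENCODE M21 on GRCm38, by ID without version; 42462 of 43346 Ensembl genes matched. Rmst transcripts were named by their equal lengths. Values are mean ± SD over 2 libraries. Counts were rounded, scaled by TMM in edgeR 4.0.16 (R 4.3.3) and tested in SciPy 1.17.1 by the exact binomial test for genes reaching 10 counts over both libraries, at an adjusted p of 0.05. With 1 group, edgeR's quasi-likelihood test was not applicable. Log2 ratios used TPM plus a pseudocount of 1, except those given on the CPM scale. DESeq2 1.42.0 size factors were an alternative. Others were spike-in and total-count scaling, count and TPM minimums, FPKM, posterior means, CPM, other pseudocounts and each library alone. Levels over the longest transcript, and transcripts of 500 nt or longer, were added after the data were seen. On data simulated for 19687 genes with counting error only, the test called 98% of 100 genes raised 2-fold, 56% of 100 raised 1.2-fold and 6 unchanged genes. The raised genes were drawn from those with 100 or more counts in the pair. Spread between real replicates was not simulated. Python 3.11.15, numpy 2.4.6, pandas 2.3.3 and matplotlib 3.10.9 were used.

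The genes and the 18 lists were chosen with earlier results of these data known. Named genes were the 8 members, their nearest neighbours, small RNA genes inside them, and the 3 highest and the lowest detected of each list set beside a member. Some items that this rule names are not reported here. Tests cover counting error only. Without molecular identifiers, reads are not independent molecules.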

Additional observations from a re-analysis of the deposited data

How the results depend on the processing

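No paired analysis was possible because the 2 libraries form 1 group. The 3 RNAs that differed between the libraries were 3 under total-count scaling, DESeq2 size factors, a minimum of 1 or 50 counts and a threshold of 0.01, and became 6 with ERCC spike-in scaling, where 7946 genes were called in place of 2472; at 0.01, 1521 genes were called. The order of the RNAs was that of TPM under posterior means. It was the same under FPKM, which is proportional to TPM within a library and so could not change it. With CPM, which is not per length, 4 of 7 kept their rank. The leading transcript held 50% or more of the gene in 3 of 7 by TPM and in 5 by counts. The causes were not tested beyond the division by length. Left out 1 library at a time, the leading share was 3 to 4. The number detected was 7 to 7 and the ranks kept 7 to 7, but neither could have differed. All 7 RNAs had passed in both libraries, and their order was the same in each. The exact test and the intervals need both libraries. Neat1 dropped out of the detected set at 5 TPM, at 10 TPM and per longest transcript (6 of 7). Disjoint intervals were 2 with FPKM and 2 after rescaling by the median ratio, Pantr1 being the gene lost in both. Over all alternatives the log2 ratio ran from -0.28 to -0.14 for Malat1, -0.32 to -0.16 for Snhg11, -0.28 to -0.11 for Miat, -0.28 to -0.10 for Pantr1, -0.23 to -0.07 for Rmst, -0.19 to -0.02 for Gas5 and -0.10 to 0.16 for Neat1.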
